A study of Homo sapiens with 6 samples.

Results

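Forkhead genes encode transcription factors that share one DNA-binding fold, the winged helix. The members were taken from the count table by their symbols, as every gene named FOX with a subfamily letter from A to S and a number, without antisense and divergent transcripts such as FOXD3-AS1. This gave 50 of the 47470 listed genes. From general knowledge of where each gene is used, 38 were classed as lineage-restricted (active in certain tissues or developmental stages) and 12 as broadly expressed (FOXJ2, FOXJ3, FOXK1, FOXK2, FOXM1, FOXN2, FOXN3, FOXO1, FOXO3, FOXO4, FOXP1 and FOXP4).

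The RNA came from HEK293T, an established line of human embryonic kidney origin with the large T antigen of a polyomavirus. There were 3 libraries of untreated cells and 3 of cells exposed for 1 day to VPA (valproic acid) at 1 mM, which inhibits histone deacetylases. All 6 libraries are of the wild-type line (genotype WT), and the comparison asks which genes change their RNA level after VPA. HEK293T is a single transformed line, so the values describe these cultures and no kidney tissue. Nothing states that the 3 libraries of a condition came from separate cultures, and the p-values measure only the spread between these libraries, which may be technical. Reads counted on genes totalled between 18622267 and 18828495 per library. Of 12 markers used to check the line, 11 were tested and PAX8 had 0 counts before and 2 after VPA. PAX2, NES, KRT8 and NEFL of that list were up-regulated after VPA. Of 15 markers of blood, liver, endothelium, connective tissue, heart, pancreas and lung, the 3 connective tissue genes COL1A1, DCN and LUM passed the filter. All 3 were up-regulated, at log2 fold changes of 1.57, 5.19 and 3.25, and DCN passed through the VPA-treated libraries alone. CD3E, ALB and INS had 0 or 1 counts per condition. PTPRC had 0 before and 12 after VPA, HBA1 0 and 11, CDH5 0 and 7, CD79A 12 and 10, and APOA1 3 and 2. Of the 15 markers, 7 had at least 1 count in the untreated and 14 in the VPA-treated libraries. The summed level of the list was 437.7 to 487.6 normalized counts in the untreated and 1504.1 to 1678.9 in the VPA-treated libraries. Most of this sum was COL1A1, with means of 432.8 before and 1287.9 after VPA. The part of that shift in the results given here was not tested.

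Forkhead factors bind related DNA motifs, and some, the FOXA proteins above all, can bind sites inside closed chromatin and are called pioneer factors. Restricted members such as FOXC2, FOXL1 or FOXN4 set cell identity in the embryo. The broadly expressed members serve processes that most cells run: the FOXO proteins answer insulin and stress signals, FOXM1 drives genes of mitosis and the FOXK proteins restrain others through chromatin complexes.

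After VPA, forkhead RNA moved in both directions. FOXC2, FOXA3, FOXL1, FOXN4 and FOXO6, which are all lineage-restricted, rose between 2.44-fold and 3.79-fold, whereas the most strongly counted members did not rise. The well-counted FOXC1, FOXF2 and FOXO3 fell, by 0.66, 0.45 and 0.55 on the log2 scale. The test was edgeR's quasi-likelihood test on the raw counts of all genes, and its p-values were adjusted over the 15298 genes that passed the filter on low counts. Here a gene is called up-regulated or down-regulated at an adjusted p under 0.05 where its log2 fold change also reached 1 in size. It is called higher or lower at an adjusted p under 0.05 alone. Of all tested genes 12.0% were up-regulated, with 29.4% of those under a mean of 50 normalized counts and 1.44% of those above 500. Above 500, 49.7% of all tested genes were lower, so a split by level is not particular to forkhead genes.

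Of the 50 members, 31 passed the filter, 12 had counts but did not pass and 7 were listed at 0 in every library. Among the 31, 5 were up-regulated, a share to be read against 12.0% of all tested genes. There were 9 higher members, the 5 included, against 32.9% of all tested genes, and 11 lower members against 30.0%. The number of down-regulated members was 0 by edgeR, 0 at an unadjusted p under 0.05 with the same fold threshold and 0 by DESeq2, where 0.503% of all tested genes were down-regulated. The log2 fold change of the tested members had a median of -0.06 and ranged from -0.83 to 1.92, and its median over all tested genes was 0.0058. Every VPA-treated library lay above every untreated library for 10 members (34.8% of all tested genes) and below for 11 (31.0% of all tested genes). FOXC2, FOXL1 and FOXQ1 passed the filter through the VPA-treated libraries alone, so that a difference was built into their entry, and the other 28 passed in both conditions. In a bulk sample, a change in the number of cells that use a gene and a change in the RNA of each cell cannot be told apart.

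**Figure D1:**
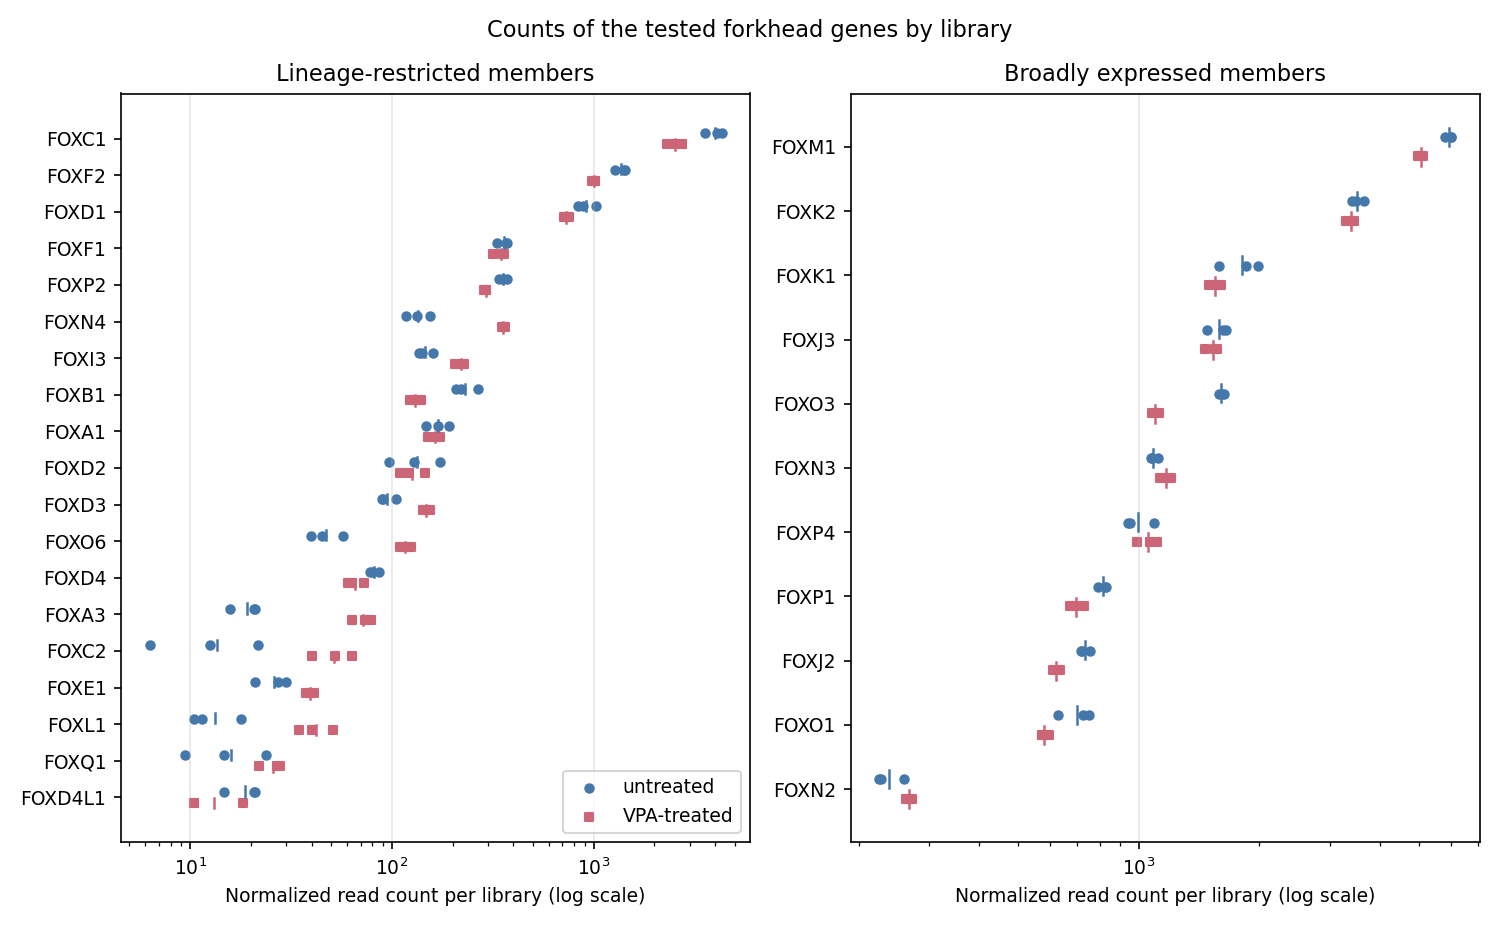
Each row is a forkhead gene that was tested, 1 gene not being drawn, with its 3 untreated libraries (circles) and 3 VPA-treated libraries (squares) on a log axis of normalized read counts. Short vertical lines are the means, and the lineage-restricted genes stand left and the broadly expressed genes right, each on its own axis. FOXN4, FOXO6, FOXA3, FOXC2 and FOXL1 have all VPA-treated points to the right of the untreated ones, and FOXO3, FOXC1 and FOXB1 to the left.

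FOXA3 (chromosome 19, 45864326 to 45873797, plus strand, GRCh38.p14) encodes an endodermal pioneer factor of the liver, pancreas and gut. Its normalized counts, which are TMM-normalized and set to the mean library, were 20.7, 20.9 and 15.7 without VPA and 73.8, 79.0 and 63.2 with it. The conditions did not overlap. The means were 19.1 ± 2.93 and 72.0 ± 8.05 (SD, n = 3 each), so that FOXA3 was 3.74-fold higher (log2 fold change 1.90, standard error 0.19, edgeR adjusted p = 1.89e-08). FOXA1 and FOXA2 belong to the same subfamily of pioneer factors. FOXA1 was at 148 to 191.5 in the untreated and 151.3 to 172.4 in the VPA-treated libraries, with a log2 fold change of -0.06 (adjusted p = 0.638) that was above 0 under upper quartile, library total and ribosomal protein scaling. FOXA2 had 0 raw counts in each untreated library and 2, 5 and 7 in the VPA-treated libraries. Against the limit that a count of 0 allows, 3 counts over the condition, the 14 counts of FOXA2 after VPA were 4.67-fold higher. That limit covers the counting error of the 0 only, and the 14 are taken as exact, so the ratio is no lower bound. In a fit without the filter the adjusted p of FOXA2 was 0.000601, and by DESeq2 it was 0.0115.

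FOXC2 (chromosome 16, 86566829 to 86569728) is needed for lymphatic vessels and valves and is active in mesenchyme. Its normalized counts were 21.7, 12.6 and 6.30 without VPA and 63.2, 52.0 and 40.2 with it. The lowest VPA-treated value exceeded the highest untreated value, although each condition was spread widely. The mean went from 13.5 ± 7.77 to 51.8 ± 11.5, a log2 fold change of 1.92 (standard error 0.28, adjusted p = 7.29e-06). The normalized counts of FOXL1 (chromosome 16, 86578549 to 86583478), a gene of the mesenchyme under the gut epithelium, were 10.4, 11.5 and 17.8 before VPA and 34.5, 51.1 and 40.2 after it. These values did not overlap either, and the log2 fold change was 1.65 (standard error 0.25, adjusted p = 7.53e-06).

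FOXN4 (chromosome 12, 109277978 to 109309284, minus strand) directs retinal progenitors and spinal interneurons. It was the most strongly counted of the up-regulated members, with 154.3, 117.2 and 133.3 normalized counts before VPA and 362.2, 349.7 and 354.2 after it. The VPA-treated values lay close together, at 355 ± 6.35, and all of them exceeded every untreated value (mean 135 ± 18.6). The log2 fold change was 1.40 (standard error 0.092, adjusted p = 2.21e-11). FOXO6 (chromosome 1, 41361434 to 41383590, plus strand) is the FOXO gene known mainly from the brain. It rose from 56.9, 39.8 and 45.1 to 123.6, 109.8 and 113 normalized counts. The conditions did not overlap, and the log2 fold change was 1.28 (standard error 0.14, adjusted p = 9.66e-08). Its antisense partner FOXO6-AS1 was listed at 0 in all libraries. FOXA3, FOXL1 and FOXN4 were up-regulated under all 17 alternatives, FOXC2 under all 16 that tested it, and FOXO6 under 16, the exception being a test against the fold threshold itself (glmTreat).

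Promoters of the 3 up-regulated members with an entry in the RefSeq table (FOXA3, FOXN4 and FOXO6), and of FOXB1, which had the lowest log2 fold change of all tested members, are shown from 250 bases before to 50 bases after the annotated start, on the strand of the gene. Capitals mark the letters GGGCGG or their reverse complement CCGCCC, the core to which the general activator SP1 is known to bind.
FOXA3, chr19:45864076-45864375, plus strand: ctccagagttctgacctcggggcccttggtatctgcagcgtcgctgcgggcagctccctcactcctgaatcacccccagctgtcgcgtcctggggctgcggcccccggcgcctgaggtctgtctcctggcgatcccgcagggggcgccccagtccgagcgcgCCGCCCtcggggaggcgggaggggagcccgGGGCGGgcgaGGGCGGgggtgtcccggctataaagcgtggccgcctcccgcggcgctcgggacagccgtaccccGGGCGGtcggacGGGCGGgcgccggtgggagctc
FOXN4, chr12:109309235-109309534, minus strand: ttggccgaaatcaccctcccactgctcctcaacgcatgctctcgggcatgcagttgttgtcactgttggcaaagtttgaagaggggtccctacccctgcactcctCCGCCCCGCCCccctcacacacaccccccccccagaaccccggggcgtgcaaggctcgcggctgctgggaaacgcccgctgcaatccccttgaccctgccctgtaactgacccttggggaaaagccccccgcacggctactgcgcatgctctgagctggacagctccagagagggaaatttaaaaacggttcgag
FOXO6, chr1:41361184-41361483, plus strand: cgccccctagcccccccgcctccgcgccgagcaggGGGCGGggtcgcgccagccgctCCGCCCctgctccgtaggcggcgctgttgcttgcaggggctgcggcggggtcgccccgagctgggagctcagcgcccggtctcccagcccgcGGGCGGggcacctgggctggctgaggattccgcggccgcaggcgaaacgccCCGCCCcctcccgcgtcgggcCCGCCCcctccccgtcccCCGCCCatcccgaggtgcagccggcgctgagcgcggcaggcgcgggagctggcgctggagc
FOXB1, chr15:60004061-60004360, plus strand: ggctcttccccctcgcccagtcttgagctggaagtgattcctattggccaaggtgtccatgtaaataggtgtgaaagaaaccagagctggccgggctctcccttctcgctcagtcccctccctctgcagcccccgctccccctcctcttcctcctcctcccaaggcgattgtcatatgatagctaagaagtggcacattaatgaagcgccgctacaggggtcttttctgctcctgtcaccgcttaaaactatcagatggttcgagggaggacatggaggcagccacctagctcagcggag

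The FOXA3 promoter held 5 matches, FOXN4 held 2 that overlap by one base, FOXO6 held 6 and FOXB1 held 0. On either strand, GGGCGG occurred in 45% of all 35114 promoters of this length, in 69.7% of the 11738 promoters of tested genes and in 19 of the 25 tested members with an entry (76%). It was in all 3 up-regulated members and in 7 of the 10 lower members with an entry. CpG dinucleotides numbered 37 in the FOXA3 window, 16 in FOXN4, 42 in FOXO6 and 10 in FOXB1, beside medians of 33 for tested members and 26 for all tested genes. TGTTTAC, the one form of the forkhead motif that was searched, on both strands, was in 0 of the 25 windows of tested members. It was in 2.22% of the promoters of tested genes. CCAAT was in 28% of the tested members' windows and 36.1% of the promoters of tested genes, TATAAA in 4% and 5.61%, and CACGTG in 12% and 9.95%. The absence of a match says only that these letters are not in this window.

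The 4 other higher members were also lineage-restricted, with changes under the fold threshold. FOXD3, which specifies the neural crest, had 104.6, 89.0 and 90.3 normalized counts in control cells and 155.2, 142.6 and 146.5 after VPA. No values overlapped, and the log2 fold change was 0.65 (standard error 0.11, adjusted p = 3.3e-05). FOXD3-AS1, which overlaps FOXD3 on the opposite strand, was higher by a log2 fold change of 0.79 (adjusted p = 7.02e-06). The strand setting of the counting is not stated, so whether reads of the pair were kept apart is not known. FOXI3, a gene of the placodes that form teeth, hair and ear, had 136.7, 160.2 and 140.7 normalized counts without and 206, 226.4 and 224 with VPA. It was higher in each VPA-treated library, by a log2 fold change of 0.59 (standard error 0.096, adjusted p = 1.69e-05).

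FOXE1, a regulator of thyroid development, and FOXQ1, an epithelial gene, were higher by small margins. FOXE1 had 30.0, 20.9 and 27.3 normalized counts without and 37.4, 38.5 and 41.2 with VPA, a log2 fold change of 0.58 (standard error 0.20, adjusted p = 0.0157). The adjusted p of FOXE1 was 0.154 by DESeq2, 0.0915 without untreated replicate 2 and 0.0509 without VPA-treated replicate 3. FOXQ1 had 23.8, 14.7 and 9.45 normalized counts before VPA and 22.0, 27.0 and 27.8 after it, so its conditions overlapped. Its log2 fold change was 0.67 (standard error 0.28, adjusted p = 0.042). Without untreated replicate 1 FOXQ1 passed both thresholds, at 1.07 with an adjusted p of 0.00468. The adjusted p of FOXQ1 was 0.207 by DESeq2, and 0.123, 0.231, 0.105 and 0.111 without untreated replicate 2, untreated replicate 3, VPA-treated replicate 2 and VPA-treated replicate 3.

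Of the 20 tested lineage-restricted members, 5 were lower (25%), beside 30.0% of all tested genes. FOXB1, a gene of the developing hypothalamus and hindbrain, had the lowest log2 fold change of the tested members. Its normalized counts were 266.1, 218.8 and 207.8 in untreated and 139.9, 122.3 and 127.3 in VPA-treated cells. Both sets were well apart, with means of 231 ± 30.9 and 130 ± 9.05, and FOXB1 fell by 0.83 on the log2 scale (standard error 0.11, adjusted p = 7.01e-07). FOXC1 acts in the anterior eye, in vessels and in mesenchyme and was the most abundant restricted member. It had 4305.8, 4081.3 and 3556.5 normalized counts in control cells and 2723.4, 2560.4 and 2294.9 after VPA. The highest VPA-treated value was below the lowest untreated one, and FOXC1 fell by 0.66 on the log2 scale (standard error 0.074, adjusted p = 1.07e-05). Its close relative FOXC2 was thus up-regulated where FOXC1 was lower, at 4.66 normalized counts per kilobase of exon before VPA against 1000 for FOXC1. FOXF2, a mesenchymal gene of gut and palate, FOXD1, a marker of the kidney stroma, and FOXP2, a gene of the brain circuits for speech, were lower by log2 fold changes of -0.45, -0.33 and -0.29 (adjusted p = 1.37e-07, 0.000164 and 0.00123). FOXD1 and FOXP2 no longer passed under ribosomal protein scaling (adjusted p = 0.475 and 0.803), and FOXP2 no longer under library totals (0.0564).

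Of the tested restricted members, 6 did not pass the test, among them FOXA1, FOXD2, FOXD4, FOXD4L1 and FOXF1. FOXD2, a gene of the paraxial mesoderm and kidney, was at 132.8 ± 39 normalized counts before and 126 ± 18.8 after VPA (log2 fold change -0.08, adjusted p = 0.734), with values above 0 under library totals and ribosomal protein scaling and without untreated replicate 1 or VPA-treated replicate 2 (0.16 and 0.012). FOXD4 and FOXD4L1 are near-identical copies with FOXD4L3 to FOXD4L6. Their log2 fold changes were -0.31 and -0.51 (adjusted p = 0.0555 and 0.139), with adjusted p of 0.0326 for FOXD4 without VPA-treated replicate 1 and 0.0458 for FOXD4L1 without VPA-treated replicate 2. Reads that align to several copies were set aside in the counting, and the counts of this family are uncertain for that reason.

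Among the broadly expressed members, 11 of 12 were tested and 6 were lower, beside 30.0% of all tested genes and 49.7% of those above 500 counts, where 10 of the 11 lie. No member of this class was up-regulated by edgeR, with 0 at an unadjusted p under 0.05 and 0 by DESeq2, and none was higher (0 by DESeq2, and 1, FOXN3, at an unadjusted p under 0.05). That count depends on the scaling, since FOXN2, FOXN3 and FOXP4 were higher with the upper quartile (adjusted p = 0.018, 0.00466 and 0.0287) and with library totals (0.00436, 0.000277 and 0.00548). Under ribosomal protein scaling FOXJ3 and FOXK2 were higher too (0.000487 and 8.58e-05), which makes 5 of the 11 higher and 1 lower. Their median log2 fold change was -0.22, with a range of -0.55 to 0.17, beside -0.055 for the 20 tested restricted members and 0.0058 for all tested genes. The restricted median was above 0 without untreated replicate 1 (0.096) and without VPA-treated replicate 2 (0.0084).

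FOXO3 and FOXO1 carry the response to insulin and oxidative stress: AKT phosphorylates them and they then leave the nucleus. FOXO3, which is described in full because of its values, had 1627.5, 1610.9 and 1584.1 normalized counts without and 1081.9, 1098.1 and 1122.1 with VPA. Each condition spanned a narrow range, and FOXO3 fell by 0.55 on the log2 scale (standard error 0.045, adjusted p = 9.16e-10). FOXO3B, a near-identical copy, was lower by a log2 fold change of -0.17 (adjusted p = 0.0281). Reads that align to both genes were set aside in the counting, and the counts of both are uncertain for that reason. FOXO1 was lower as well, from 702.4 ± 65.1 to 581.6 ± 14.4 (log2 fold change -0.27, adjusted p = 0.000977). Of the FOXO genes, FOXO6 was thus the one that rose. FOXO4, together with FOXP3 and FOXR2, lies on the X chromosome, and all 1437 listed X-chromosomal genes were at 0 in every library, so that these 3 members give no information.

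FOXM1, the factor of late cell cycle genes, was the most abundant member. It had 5794.6, 6005.2 and 6016.1 normalized counts before VPA and 5110.4, 5089.0 and 4986.2 after it. These did not overlap, and FOXM1 was lower by a log2 fold change of -0.23 (standard error 0.039, adjusted p = 2.26e-05), but stood at 0.042 under ribosomal protein scaling. On the opposite strand FOXM1 overlaps ITFG2, with a log2 fold change of -0.73, and RHNO1, with one of -0.10.

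FOXK1 and FOXK2 bind the BAP1 deubiquitinase and SIN3 complexes. FOXK2 had 3407.2, 3475.2 and 3648.9 normalized counts without and 3419.1, 3297.3 and 3444.8 with VPA. The ranges overlapped (log2 fold change -0.05, adjusted p = 0.282), with values above 0 under upper quartile, library total and ribosomal protein scaling. FOXK1 had 1982.6, 1849.6 and 1587.2 normalized counts in control cells and 1599.3, 1555.7 and 1494.5 after VPA. Untreated replicate 3 lay among the VPA-treated libraries, and FOXK1 was lower by a log2 fold change of -0.22 (standard error 0.063, adjusted p = 0.00589), with 0.051 under ribosomal protein scaling. FOXJ2, a transcriptional activator, and FOXP1, a repressor known from lymphocytes and the heart, were lower by log2 fold changes of -0.23 and -0.22 (adjusted p = 9e-04 and 0.00133) and stood at 0.039 and 0.051 under ribosomal protein scaling. FOXJ3, FOXN2, FOXN3 and FOXP4 did not pass the test, with log2 fold changes of -0.05, 0.17, 0.10 and 0.09. FOXN2 and FOXN3 had all VPA-treated values above all untreated values (adjusted p = 0.0798 and 0.0642). With the replicate number as a block their adjusted p was 0.045 and 0.0207, and that of FOXD4 0.0488. FOXN2 and FOXP4 passed the adjusted p without untreated replicate 1 (0.027 and 0.0215), and FOXN3 without VPA-treated replicate 1 (0.0407). With library totals FOXO1, FOXJ2, FOXK1 and FOXP1 no longer passed (adjusted p = 0.074, 0.115, 0.275 and 0.164).

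Counts grow with the length of a gene, so levels are ranked between genes here per kilobase of exon. The exon length is the union over all annotated transcripts of a gene, such as 32800 bp for FOXP1 and 3983 bp for FOXC1. The ranking depends on this choice, which lowers the values of genes with long or many transcripts. In untreated cells FOXM1 had 1210 normalized counts per kilobase, FOXC1 1000, FOXF2 560, FOXK2 352, FOXD1 320, FOXJ3 230, FOXO3 210 and FOXK1 138. By this measure restricted genes took several of the places at the top of the family. The tested restricted members had a median level of 37.7 per kilobase, from 2.63 to 1000, and the tested broad members one of 123, from 24.8 to 1210. The up-regulated members had a median of 8.98 in untreated cells and at most 38.2. Gene structure followed the classes, since 11 of 20 tested restricted members and 0 of 11 tested broad members have a single exon, with median gene spans of 3737.5 and 89148 bp.

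Sorted by their mean count, which sets how precisely a gene is measured, strongly counted genes had lower fold changes. Under a mean of 50 normalized counts, 3 of 6 tested members were up-regulated, beside 29.4% of all tested genes in that range. FOXC2 and FOXL1, 2 of those 3, passed the filter through the VPA-treated libraries alone, and of the 3 members in this range that passed in both conditions 1 was up-regulated. Between 50 and 500, 2 of 11 members and 16.5% of all genes were up-regulated. Above 500, 0 of 14 members and 1.44% of all genes were up-regulated, whereas 9 members and 49.7% of all genes were lower. The median log2 fold change in these 3 ranges was 1.2, -0.05 and -0.23 for members and 0.39, 0.19 and -0.12 for all genes. Spearman's rho between log2 fold change and mean count over the 31 tested members was -0.44, and -0.30 over the 28 that passed the filter in both conditions, as a description, since all points share the 6 libraries. The class and the level go together, with 16 of the 17 members under 500 restricted and 10 of the 14 others broad. Within the range above 500, the 4 restricted members had 3 lower calls (FOXC1, FOXD1 and FOXF2) and a median of -0.39, and the 10 broad members 6 lower calls and a median of -0.22. The classes and the levels can therefore not be told apart as the basis of the split.

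**Figure D2:**
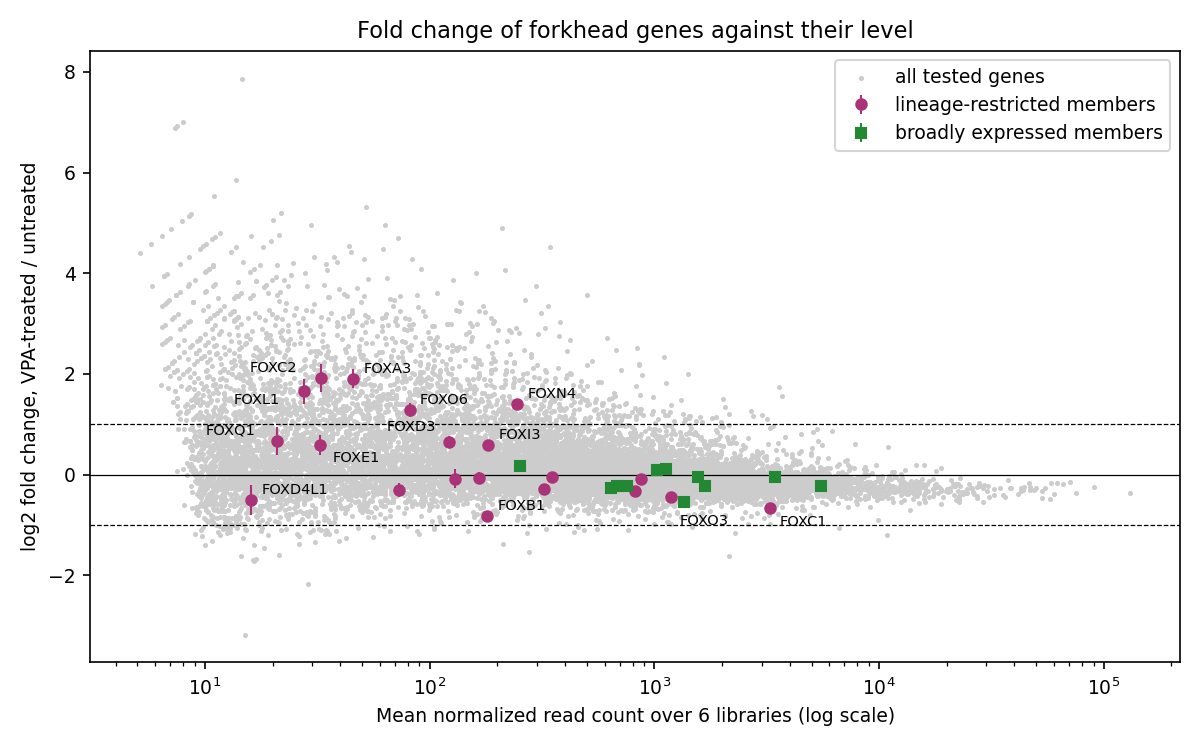
The log2 fold change of each tested forkhead gene is drawn against its mean normalized count over 6 libraries (log axis), with its standard error as a bar, over all 15298 tested genes in grey. Dashed lines mark the fold thresholds at 1 and -1. The 5 up-regulated members lie in the left part of the plot, and the 14 members above 500 counts lie between -0.66 and 0.10.

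Summed over all 50 genes, forkhead RNA came to 28759.6, 28036.2 and 27354.3 normalized counts without and 24678.2, 24311.2 and 24058.1 with VPA. The broad members made up 19014.1 ± 147.1 of this in untreated and 17024.1 ± 40.2 in VPA-treated cells, and the restricted members 9035.9 ± 663.5 and 7325.1 ± 292. Both sums, on the TMM scale, were lower in every VPA-treated library. They were not computed under the other scalings, where their direction can differ. Those scalings move all genes together, from a median of 0.0058 under TMM to 0.28 for ribosomal protein genes. With the latter, FOXM1, the most abundant member, had a log2 fold change of 0.042 against -0.23 under TMM, and FOXC1 had -0.38 against -0.66. FOXC1 alone went from 3981.2 ± 385 to 2526.2 ± 216 normalized counts. The most strongly counted genes set these sums, and the 5 risers hardly enter them. At least 1 count was found for 39 members in the untreated and 42 in the VPA-treated libraries.

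Apart from FOXA2, 5 members below the filter had at least 10 counts over the 6 libraries. FOXB2, an ectodermal gene, had 8 counts in untreated and 14 in VPA-treated libraries, FOXD4L3 had 7 and 8, and FOXD4L4 had 8 and 4. FOXH1, the partner of SMAD proteins in nodal signalling, had 9 and 7 counts, in spite of lying over KIFC2, which was up-regulated at a log2 fold change of 1.24. FOXJ1, the master gene of motile cilia, had 6 and 6. FOXD4L6, FOXE3, FOXL2, FOXN1, FOXR1 and FOXS1 had between 1 and 9 counts in all. In a fit without the filter, the adjusted p of these 11 lay between 0.327 and 0.963, and at this depth a difference was not detectable. Listed at 0 were, beside the 3 X-linked genes, FOXD4L5, FOXI1, FOXI2 and FOXL3, where 3 counts over a condition, the limit that a count of 0 allows, correspond to 0.0532 CPM in untreated and 0.0536 CPM in VPA-treated cells.

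Members that lie side by side in the genome did not move as one. On chromosome 16, FOXF1, FOXC2 and FOXL1 span 73.0 kb on the same strand, with 51.4 kb between FOXF1 and FOXC2 and 8.82 kb between FOXC2 and FOXL1. FOXC2 and FOXL1 were up-regulated, while FOXF1, a mesenchymal gene of the lung and gut, was at 357.3 ± 22.1 normalized counts before and 345.1 ± 23.7 after VPA (log2 fold change -0.05, adjusted p = 0.582), with values above 0 under upper quartile, library total and ribosomal protein scaling. The long non-coding RNA FLJ30679, 9530 bp before FOXC2, went from 13 to 43 counts in all, a log2 fold change of 1.58 (standard error 0.38, adjusted p = 0.00109), and with so few untreated counts it passed the filter through the VPA-treated libraries alone. Between it and FOXF1 lies MTHFSD, which was lower by a log2 fold change of -0.23 (adjusted p = 0.00193), and on the other side of FOXF1 the non-coding FENDRR had one of 0.13 (adjusted p = 0.248). FOXC2-AS1, which overlaps FOXC2 on the other strand, had 0 and 1 counts.

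On chromosome 6, FOXQ1, FOXF2 and FOXC1 lie within 302 kb, with 74.8 and 214 kb between them. FOXQ1, the least counted of these, was higher at 0.67, and FOXF2 and FOXC1 were lower, FOXF2 from 1372.6 ± 85.6 to 1001.5 ± 23.2. The adjacent GMDS was higher by a log2 fold change of 0.51 (adjusted p = 2.11e-06), and FOXCUT, a non-coding RNA before FOXC1, went from 24 to 8 counts and was not tested. Near FOXA3, SYMPK, 1179 bp away, was lower at -0.28 (adjusted p = 4.74e-06), IRF2BP1 was lower at -0.20, and MYPOP, 16226 bp away, was higher at 0.24 (adjusted p = 0.00956). Beside FOXN4, MYO1H, 1184 bp away, went from 5 to 18 counts and was not tested, and ACACB, 9752 bp away, had a log2 fold change of -0.06 (adjusted p = 0.377).

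**Figure D3:**
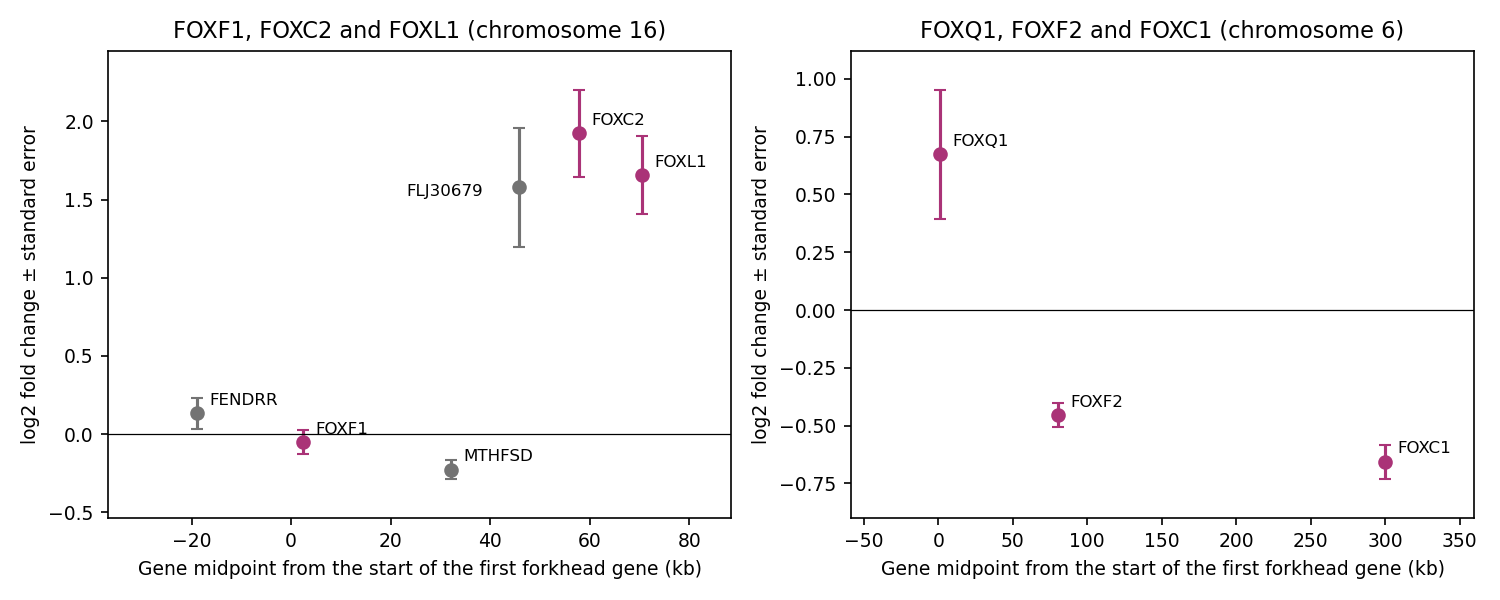
The log2 fold change (bars: standard error) of forkhead genes (purple) and of 3 neighbours on chromosome 16 (grey) is drawn by the gene's midpoint in kb from the start of the first forkhead gene. On chromosome 16, FOXC2, FOXL1 and FLJ30679 lie above 1.5 and FOXF1 at -0.05, and on chromosome 6, FOXQ1 lies at 0.67, FOXF2 at -0.45 and FOXC1 at -0.66.

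Genes that work with the family were counted by lists drawn up from general knowledge, and each list's calls stand beside 32.9% higher and 30.0% lower over all tested genes. FOXM1 targets act in mitosis, and of the 22 tested 16 were lower, 1 was higher and 5 did not pass, with a median log2 fold change of -0.25. Of the 22, 21 had a mean above 500 normalized counts, a range in which 49.7% of all tested genes were lower. The kinase BUB1, the kinesins KIF20A and KIF23 and the kinase PLK1 were lower by log2 fold changes of -0.34, -0.36, -0.32 and -0.28 (adjusted p = 2.64e-07, 6.77e-07, 1.23e-06 and 1.75e-06). CENPE, a kinetochore motor, was the one higher gene, at 0.19. Under ribosomal protein scaling 0 of the 22 were lower and 6 higher, with a median of 0.028.

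Of the 26 regulators of FOXO proteins, 25 were tested, of which 5 were higher and 11 lower, with a median of -0.11. Of the 25, 18 had a mean above 500 normalized counts, where 49.7% of all tested genes were lower. YWHAE, which encodes an adaptor that holds phosphorylated FOXO in the cytoplasm, fell by 0.55 on the log2 scale (adjusted p = 5.73e-10), and YWHAH of the same family fell by 0.38 (adjusted p = 7.19e-07). All 6 YWHA genes of the list were lower, while under ribosomal protein scaling only 1 of the 25 genes was lower and 17 were higher. Upstream of AKT, the adaptor IRS1 went from 126 ± 6.49 to 231.9 ± 15.2 normalized counts (log2 fold change 0.88, adjusted p = 6.83e-08) and the insulin receptor INSR had a log2 fold change of 0.38 (adjusted p = 3.7e-06). Of 23 FOXO targets 18 were tested, 5 of them higher and 5 lower, with a median of 0.07, and 11 were higher and 2 lower under ribosomal protein scaling. The death gene BCL2L11, the sestrin SESN1 and the superoxide dismutase SOD2 were lower (log2 fold changes -0.54, -0.52 and -0.30), and the cell cycle inhibitor CDKN1A was higher at 0.66 (adjusted p = 3.33e-07).

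The genes of the FOXJ1 program build motile cilia. Of 20, 14 were tested, 4 were up-regulated, 9 higher with these included and 0 lower (0 at an unadjusted p under 0.05 and 0 by DESeq2), with a median log2 fold change of 0.62. Over all tested genes 12.0% were up-regulated and 32.9% higher, and 29.4% were up-regulated under a mean of 50 counts, where 8 of the 14 lie. Of the 14, 7 passed the filter through the VPA-treated libraries alone, so that a difference was built into their entry: CCDC39, CFAP53, DNAI1, ODAD1, RSPH1, SPEF1 and TEKT2. RSPH9, which did not pass, went from 17 to 5 counts and was lower in every VPA-treated library. DNAH11, an axonemal dynein, went from 113.1 ± 5.63 to 312.8 ± 3.79 (log2 fold change 1.47, adjusted p = 5.02e-12). CCDC39, DNAI1 and RSPH1 had log2 fold changes of 1.63, 1.40 and 1.11 (adjusted p = 6.7e-05, 0.00198 and 0.0191) at mean levels of 5.56 to 24.9 normalized counts. RSPH1 lost its call by DESeq2 (adjusted p = 0.152) and without untreated replicate 2 (0.0835), untreated replicate 3 (0.0779), VPA-treated replicate 2 (0.0516) or VPA-treated replicate 3 (0.0785). FOXJ1 itself had 6 counts in each condition, and a difference in its RNA was not detectable at this depth.

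Of the FOXK partners all 9 were tested, with 2 higher, 4 lower and a median of -0.082. With library totals 3 were higher and 2 lower, and under ribosomal protein scaling 6 were higher and 0 lower, with a median of 0.19. Of the 9, 7 had a mean above 500 normalized counts, where 49.7% of all tested genes were lower. BAP1 and ASXL1, which together remove ubiquitin from histones, were lower at -0.33 and -0.31 (adjusted p = 6.3e-07 and 5.54e-07), and ASXL3, a relative of ASXL1, was higher at 0.66 (adjusted p = 4.26e-06). KDM1B, a histone demethylase, was higher at 0.22. Of the 9 FOXP partners, which are corepressors, 4 were lower and the median was -0.10. All 9 had a mean above 500 normalized counts, the range with 49.7% lower genes. GATAD2A was at -0.21 (adjusted p = 1.5e-04), CHD4 at -0.14, MTA1 at -0.18 and CTBP1 at -0.16. With library totals 0 of the 9 were lower and 2 higher. Under ribosomal protein scaling 0 were lower and 6 higher, with a median of 0.17. Of 12 genes around FOXH1 8 were tested, with 1 higher and 4 lower, and 5 higher and 1 lower under ribosomal protein scaling. Of the 8, 5 had a mean above 500 normalized counts. MIXL1, a homeobox gene of mesendoderm that passed the filter through the VPA-treated libraries alone, was up-regulated from 15.3 ± 7.41 to 35.5 ± 2.59 normalized counts (log2 fold change 1.21, adjusted p = 4.01e-04), and at 0.99 it fell short of the fold threshold without untreated replicate 3. SMAD4, SMAD2, ACVR2A and ACVR2B were lower, SMAD4 at -0.39 (adjusted p = 5.09e-07).

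**Figure D4:**
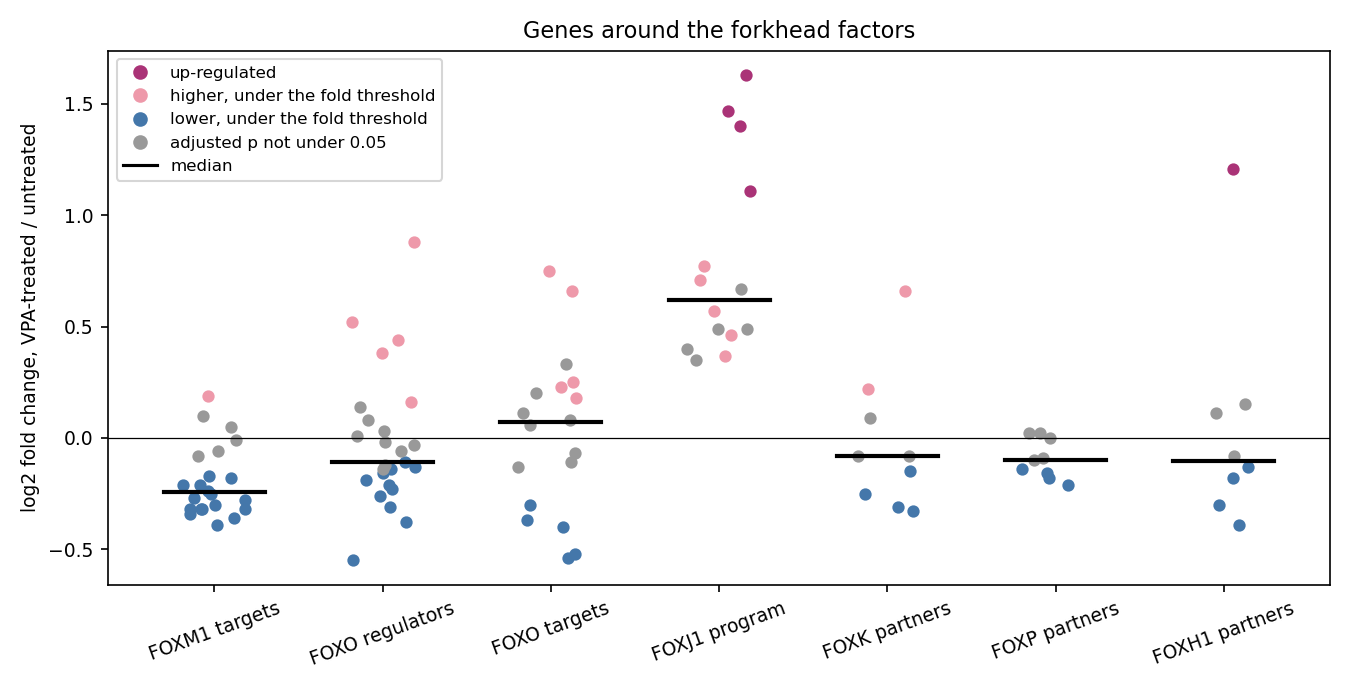
Each point is a tested gene of a list, at its log2 fold change between VPA-treated and untreated cells and coloured by its call under TMM normalization, with the list's median as a line. The FOXJ1 program has its 14 tested genes between 0.35 and 1.63, and the FOXM1 targets lie between -0.39 and 0.19 with a median of -0.25, which is 0.028 under ribosomal protein scaling.

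The scaling of the libraries moves all fold changes together. The median over all tested genes was 0.0058 under TMM, -0.0081 with DESeq2 size factors, 0.071 when the upper quartile was used, 0.14 for library totals and 0.28 for ribosomal protein genes. The count of higher and lower members went from 9 and 11 under TMM to 9 and 12, 12 and 11, 12 and 6, and 16 and 4 in the same order. Relative to the median of all genes, the broad members stood at -0.23 and the restricted members at -0.06, and 8 of the 11 broad members lay below it. A scaling shifts every gene alike and leaves these differences as they are. Under ribosomal protein scaling FOXB1 still had a log2 fold change of -0.56, FOXC1 -0.38, FOXO3 -0.27 and FOXF2 -0.18, whereas FOXM1, FOXK1, FOXJ2 and FOXP1 were above 0.

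**Figure D5:**
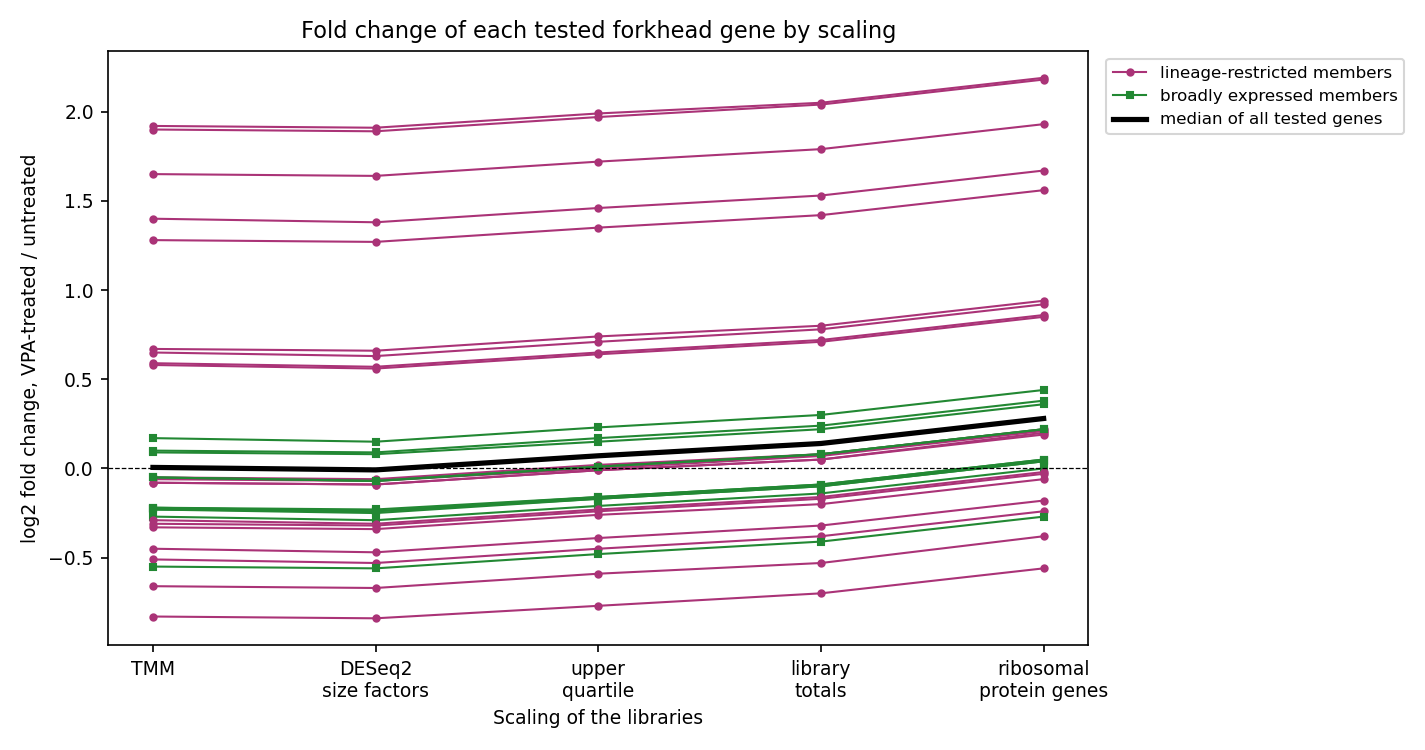
Each line is a tested forkhead gene, at its log2 fold change under 5 ways to scale the libraries, with the median of all tested genes in black. All lines rise together towards the right, from a median of 0.0058 to 0.28, and the members that lie near 0 under TMM, FOXA1, FOXF1, FOXJ3 and FOXK2 among them, cross it.

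Untreated replicate 1 gave the highest of the 3 untreated values for 17 of the 31 tested members (54.8%), beside 35.5% of all tested genes. It did so for 8 of the 11 members with a single exon and for 9 of the 20 with more. The share over all single-exon genes was not computed. VPA-treated replicate 1 gave the highest of its condition for 14 members (45.2%), beside 37.5% of all tested genes. The part of this library in the results was not tested beyond leaving it out, in which case the 5 up-regulated members kept their calls, at log2 fold changes of 1.96 for FOXA3, 2.44 for FOXC2, 1.50 for FOXL1, 1.50 for FOXN4 and 1.43 for FOXO6.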

How the data were processed

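Total RNA was made into strand-specific mRNA libraries and sequenced on a DNBSEQ instrument. The authors deposited raw read counts per gene, 1 column per library. These are whole reads summed over genes by HTSeq after a STAR alignment to hg38, with SOAPnuke as the trimming tool. The submitters' processing notes name STAR 2.7.10b and HTSeq 2.0.1, and the paper another release of the counter. The annotation and the strand setting are not given in the sources used here. Lines that sum up reads outside genes (6.8% to 7.69% per library), on several genes (1.97% to 2.1%) or at several places (2.81% to 2.92%) were not used.

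The test across genes was edgeR 4.0.16 (R 4.3.3, TMM, filterByExpr with a count minimum of 10, robust quasi-likelihood fit, condition as the one term, prior count 0.125) with Benjamini-Hochberg adjustment over all 15298 genes, and calls used the thresholds of the study. Biological coefficient of variation was 3.83%. Libraries of a condition differed by more than sampling noise (chi-square per gene 1.62 to 4.8). The limit for a count of 0 covers counting error only. DESeq2 1.42.0, other scalings, filters and thresholds, a replicate block and leaving out each library were alternatives. The test was tested on simulated data.

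Coordinates and promoters are from RefSeq on GRCh38.p14, with a promoter for 39 members (the first start for 4 that have more than 1), and exon lengths from GENCODE 44. No entry was found for 11 members, FOXC2 and FOXL1 among them. Values per library are given for members past both thresholds, for the 6 largest changes past the adjusted p alone, for the 4 members with the highest mean counts and for untested members with at least 10 counts. List genes are named up to 4 a list, both thresholds first and then by smallest p, and neighbours within 50 kb. FOXO3, FOXF1, FOXF2, FOXD2, FOXO1, ACVR2A, ACVR2B, SMAD2 and CENPE are named beyond this rule, after their values were seen. The members and lists were chosen with earlier results of these data known. The authors' own test results were not used. The values of 1 tested member are not reported here. It stays in the counts and medians, except in the count of repeats under the alternatives.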

Additional observations from a re-analysis of the deposited data

How the results depend on the processing

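Of 478 repeats of the fold changes of 30 tested members under the alternatives, 418 kept direction and side of the threshold, 18 lost the call, 20 gained it and 22 changed sign. Changes of sign were seen in uncalled members, and in FOXJ2 (0.039), FOXK1 (0.051), FOXM1 (0.042) and FOXP1 (0.051) under ribosomal protein scaling. The other such values were 0.21 for FOXA1, 0.2 for FOXD2, 0.22 for FOXF1, 0.22 for FOXJ3 and 0.22 for FOXK2 under that scaling. With library totals they were 0.071, 0.055, 0.081, 0.081 and 0.08 in the same order, and with the upper quartile 0.0049 for FOXA1, 0.015 for FOXF1, 0.014 for FOXJ3 and 0.014 for FOXK2. FOXA1 was at 0.03 and FOXD2 at 0.16 without untreated replicate 1, and FOXD2 at 0.012 and FOXF1 at 0.0045 without VPA-treated replicate 2 (leaving out each library, FOXD2 ranged from -0.27 to 0.16 and FOXF1 from -0.11 to 0.0045). The cause was not tested.

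The restricted median was 0.01 with the upper quartile, 0.076 with library totals and 0.22 when scaled on ribosomal protein genes. It was 0.15 with no filter on counts, and members under 500 counts had one of 0.58. The broad median was -0.16, -0.09 and 0.051 under those 3 scalings and -0.25 by DESeq2. Leaving out each library gave -0.088 to 0.096 and -0.23 to -0.16. Lower members numbered 6 with library totals, 4 when scaled on ribosomal protein genes and 0 under glmTreat, which tests against the fold threshold, and higher members 16 with ribosomal protein scaling and 4 under glmTreat. Leaving out each library gave 5 to 6 up-regulated, 7 to 11 higher and 11 to 12 lower members. Over all genes, the 77 down-regulated became 38 with library totals, 17 when scaled on ribosomal protein genes, 162 with no filter, 43 where each library had 10 counts or more and 8 under glmTreat, and the 1833 up-regulated became 1179 and 1149 under the last 2 of these. With 1 library fewer, 1874 to 1961 genes were up-regulated and 83 to 110 were down-regulated. The 5 up-regulated list genes became 8 under ribosomal protein scaling, 8 with no filter, 2 where each library had 10 counts or more, 1 under glmTreat and 3 to 5 when a library was left out, 3 without untreated replicate 3.

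Deviations of same-numbered libraries correlated at 0.32, 0.089 and 0.24, and the other pairs lay between -0.26 and 0.045. Each library thus correlated best with its own number, a hint from the data of something shared. The labels give only the number, and what same-numbered libraries share was not tested. With the replicate number as a block, 5 members were up-regulated, 11 higher and 12 lower, the medians were -0.055 and -0.22, and 1835 genes were up-regulated and 77 down-regulated. Counts under 50 limit the precision of FOXC2, FOXL1, FOXQ1, FOXE1 and FOXA2.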

Other observations

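Other transcripts named after forkhead genes, which the symbol rule leaves out, were counted too. FOXP1-DT had 31 counts in untreated and 12 in VPA-treated libraries and was not tested. FOXP4-AS1 had 48 and 34, with a log2 fold change of -0.61 (adjusted p = 0.0932). FOXD2-AS1 had a log2 fold change of 0.19 (adjusted p = 0.15), beside -0.08 for FOXD2. FOXN3-AS1 and FOXL2NB had log2 fold changes of -0.49 and -0.19 (adjusted p = 0.0708 and 0.617). GMDS-DT, the divergent transcript of the gene beside FOXC1, was higher at 0.60 (adjusted p = 0.0161). FOXRED2, an oxidoreductase that shares the name and not the winged helix, was lower at -0.26 (adjusted p = 1.76e-05) and FOXRED1 had 0.04 (adjusted p = 0.448).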
